A study of Mus musculus with 3 samples.

Results

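Of the 31058 genes counted in 3 mouse glomerular libraries, 56 belong to 5 solute carrier families of the kidney: 13 carry the symbol Slc5a with a number, 9 Slc12a, 6 Slc13a, 25 Slc22a and 3 Slc34a. They were taken by symbol and not by a measured value, but the choice was made with earlier results of these data known. Of the 56, 46 had at least 20 unique molecular identifiers (UMIs, each a counted RNA molecule) over all kept cells and are described, as had 16250 genes of the series. These were 9 Slc5, 9 Slc12, 4 Slc13, 21 Slc22 and 3 Slc34 members. All 56 gene identifiers were found in the GENCODE M21 annotation of GRCm38.

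The libraries hold cells of kidney glomeruli, profiled by droplet sequencing of 3′ tags, of 1 male and 2 female mice, and the second of these females is labelled RPC-ERαKO. R26.Confetti, TetO.Cre and Pax2.rtTA were shared by all 3 healthy C57Bl/6 mice. They received doxycycline when 20 days old and were followed to 90 days of age. The third genotype adds ERalphaKO, so the deletion it names is expected in cells that descend from Pax2-expressing cells and not in endothelial or blood cells, and which part of the receptor gene is deleted is not given in the sources used here. Each group is 1 mouse and 1 library, so no difference can be set against a spread between mice, no test between groups was possible, and every interval below covers counting error only.

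These families move small solutes across the epithelium of the nephron. Slc5 members carry glucose, monocarboxylates, myo-inositol or vitamins with sodium, Slc34 members phosphate, and Slc13 members sulfate and dicarboxylates. Slc12 members are cation-chloride cotransporters that reclaim salt in the distal nephron and set chloride and volume in many cells, and Slc22 members move organic anions, cations and zwitterions, among them urate and many drugs. Most are known from the proximal tubule, where glucose and phosphate are reclaimed mainly by the early part and where many organic anion transporters differ between male and female rodents.

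The 3 libraries, named male, female and ERαKO below by their labels, held 44585342 to 47522141 UMIs in 3555 to 4244 barcodes, and 2520 to 3224 cells with median depths of 7323.5 to 8831.5 UMIs were kept. More than 25% mitochondrial UMIs were found in 20.97% of male, 17.7% of female and 33.99% of ERαKO barcodes, which were not kept. Pairs of libraries shared 4 to 8 barcodes. Classes were named from marker genes that include no family member, and a class name stands for cells like that type. Proximal tubule cells, 111 male, 89 female and 184 ERαKO, held all 12 proximal tubule markers in each library, at a summed 19934, 17904 and 17273 counts scaled to 1000000 UMIs of the class (CPM). Median depths were 10690, 15078 and 11742.5 UMIs. The 5 erythroid markers summed to 8.99, 4.73 and 2083 CPM in these cells, the 8 smooth muscle and renin markers to 89.3, 17.7 and 220 CPM and the 10 podocyte markers to 204, 325 and 203 CPM, and their part in the results was not tested. The targeted gene Esr1 had 84 UMIs in male, 69 in female and 125 in ERαKO kept cells (2.65, 2.05 and 4.34 CPM), and 13, 8 and 68 in proximal tubule cells. Esr1 was thus not lower in the library labelled ERαKO, and a 3′ tag outside the deleted part would be counted all the same, so the library is called by its label and no direction here is tied to loss of the receptor.

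Proximal tubule cells were the main site of the families. Of the 46 described members, 28 had their highest mean level over the 3 libraries in proximal tubule cells, 4 in thick ascending limb, 3 in distal convoluted tubule, 3 in endothelial, 2 in mesangial and 2 in parietal epithelial cells, and 1 each in mononuclear phagocytes, principal cells, smooth muscle and renin cells, and T and NK cells. All members together made up 5913 CPM of male, 5343 of female and 5004 of ERαKO proximal tubule cells. The distal convoluted tubule reached 10625, 12218 and 12318 CPM and the thick ascending limb 8764, 6835 and 7261 CPM, each through 1 dominant gene. Podocytes held 359, 285 and 397 CPM, endothelial cells 349, 309 and 367 CPM, and mesangial cells 1240, 961 and 1008 CPM.

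**Figure D1:**
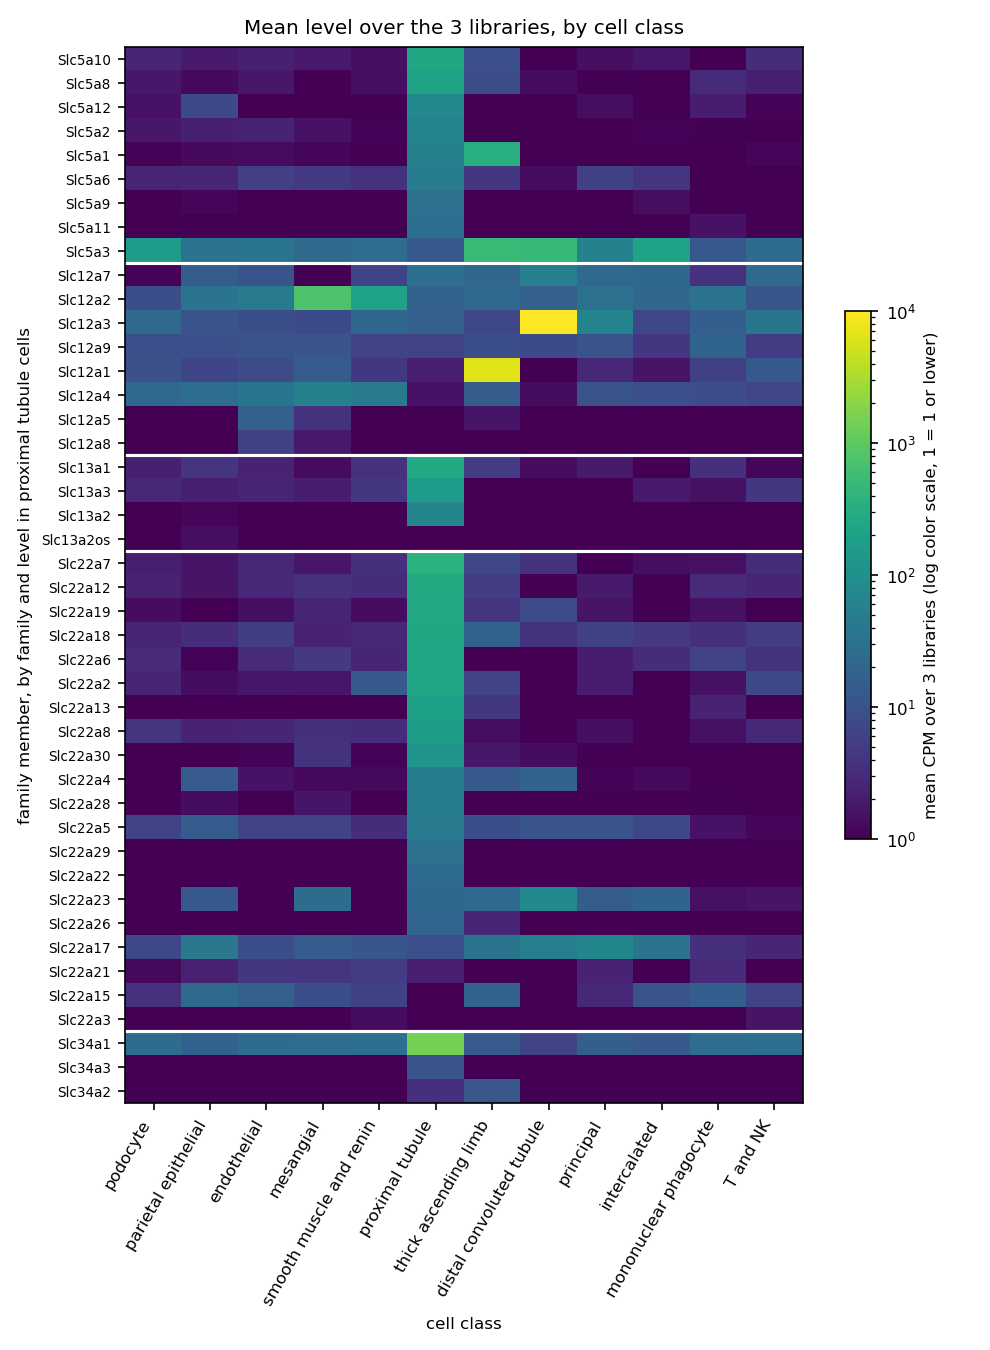
Mean level over the 3 libraries (CPM, log color scale) of described members, in rows grouped by family, in 12 cell classes, in columns. The proximal tubule column is the brightest for most members, and Slc12a1, Slc12a3 and Slc12a2 stand out in the thick ascending limb, distal convoluted tubule and mesangial columns.

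Outside the proximal tubule the Slc12 family held the highest levels. Slc12a1, the sodium-potassium-chloride cotransporter NKCC2 of the thick ascending limb, stood at 7322 CPM in male, 5865 in female and 6293 in ERαKO thick ascending limb cells (19, 8 and 22 cells). Slc12a3, the thiazide-sensitive sodium-chloride cotransporter, stood at 9887, 11443 and 11556 CPM in distal convoluted tubule cells. The female value rests on 2 cells, 1 of which held 80.6% of its UMIs. Slc12a2, the secretory cotransporter NKCC1, was the leading member in mesangial cells with 876, 725 and 695 CPM, followed by smooth muscle and renin cells with 221, 189 and 185 CPM. Its levels in these 2 classes were far above those in endothelial (47.3, 45.2 and 47.2 CPM) and parietal cells (38.1, 31.4 and 35.3 CPM) of every library.

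The potassium-chloride cotransporters were lower and spread wider. Slc12a4 was highest in mesangial cells with 59.1, 40.7 and 70.7 CPM. Slc12a5, the potassium-chloride cotransporter best known from neurons, had 89.6% of its kept UMIs in endothelial cells, at 19.4, 20.0 and 10.9 CPM. Slc12a8 had 87.3% of its UMIs there, at 6.20, 5.51 and 6.35 CPM. Slc12a5 and Slc12a8 thus had most of their UMIs in endothelial cells, both at low levels.

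Among the other families, Slc5a3, the sodium-myo-inositol cotransporter that cells use to gather an organic osmolyte, was the leading member in podocytes. It stood at 176 CPM in male, 141 in female and 149 in ERαKO podocytes, and podocytes held 68.0% of its kept UMIs. Slc5a3 shares 159 of its 10913 exon bases with Mrps6 on the same strand. After thinning every cell to 4000 UMIs, 48.3%, 39.7% and 41.3% of podocytes had a Slc5a3 UMI, against 11.9%, 10.3% and 14.5% of endothelial cells. The unthinned shares were 69.5%, 67.4% and 64.5% of podocytes (median depths 7731, 9184 and 7383.5 UMIs) and 23.1%, 23.9% and 24.9% of endothelial cells (6002, 7527 and 8161 UMIs). Its level was higher still in the few cells of the thick ascending limb (742, 470 and 276 CPM), the distal convoluted tubule (511, 475 and 432 CPM) and the intercalated class (202, 288 and 146 CPM). Slc5a1, the high-affinity glucose cotransporter SGLT1, was highest in the thick ascending limb with 281, 300.0 and 411 CPM. Slc22a17, also known as a lipocalin receptor, was highest in principal cells (92.8, 79.0 and 37.1 CPM) and led in parietal cells (38.1, 38.0 and 39.8 CPM), and Slc22a23 reached 61.9, 49.97 and 114 CPM in the distal convoluted tubule.

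Slc12a3 also showed how far 1 cell can carry a class. In ERαKO principal cells it had 127 UMIs, 125 of them in 1 cell, and in ERαKO proximal tubule cells 106, 94 of them in 1 cell. Its ERαKO value in proximal tubule cells rests on that cell.

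Slc34a1, the main phosphate cotransporter of the proximal tubule, was the most abundant member there, with 2254 CPM in the male, 1204 in the female and 898 in the ERαKO library. The next by mean level were Slc22a7, Slc13a1, Slc22a12, Slc22a19 and Slc5a10, with means of 355, 282, 268, 257 and 253 CPM. By family, Slc22 members summed to 2332, 2575 and 2775 CPM and Slc34 members to 2276, 1215 and 909 CPM. Slc5 members came to 693, 814 and 821 CPM, Slc13 members to 479, 657 and 405 CPM and Slc12 members to 131, 82.2 and 93.8 CPM. The Slc34 sum was thus highest in the male library and the Slc22 sum in the ERαKO library.

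**Figure D2:**
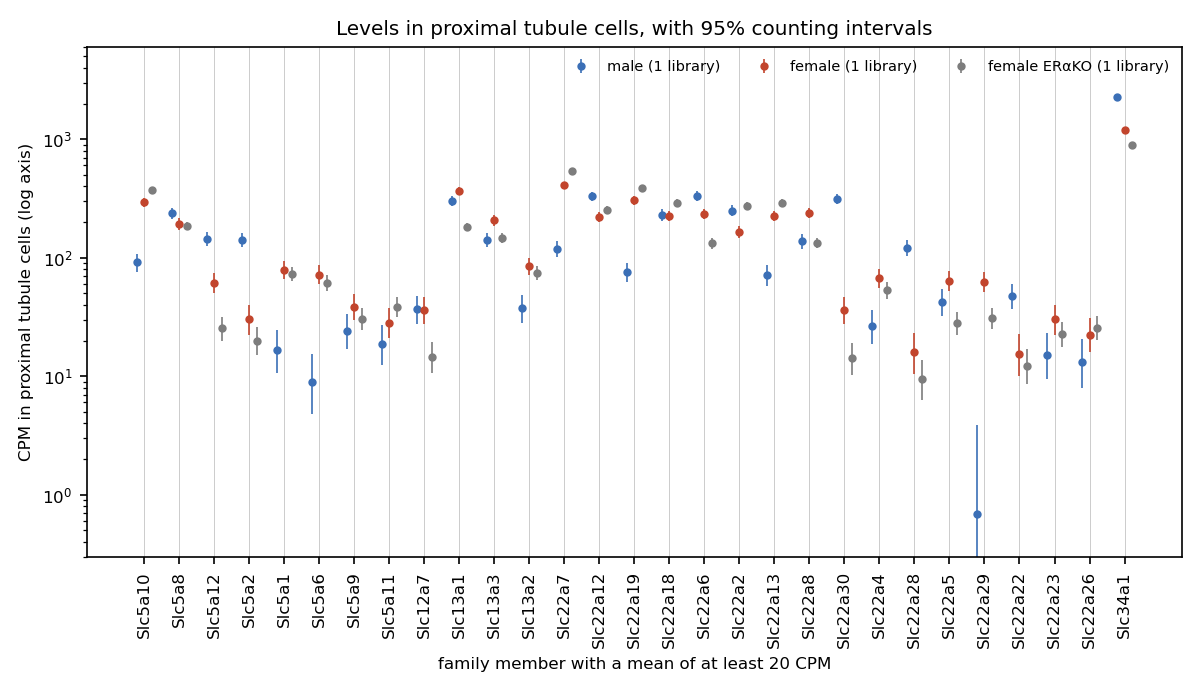
Level in proximal tubule cells (CPM, log axis) of members with a mean of at least 20 CPM, by library, with bars for the exact 95% counting interval. Slc34a1 lies above all others in each library, and Slc22a29 in the male library, with 1 UMI, lies lowest, its lower bar running off the axis.

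The proximal tubule cells fell into 7 clusters, which differed in 2 short lists of early and late tubule genes without family members. In clusters 16, 17, 19 and 25 the early list (such as Slc2a2, Slc4a4 and Gatm) summed to at least 2206 CPM, and in clusters 14, 28 and 32 to at most 288 CPM, and these are called early and late below. Only the early list set this split. The late list summed to at least 4476 CPM in late clusters, but also to 2423 and 3106 CPM in early clusters 16 and 19. Of its 6 genes, 3 were at least 1.5-fold higher (21.7% of all genes) and 1 lower (11.0%) in male than in female proximal tubule cells. The libraries differed in this makeup: early clusters held 97 of 111 male cells (87.4%), 48 of 89 female cells (53.9%) and 88 of 184 ERαKO cells (47.8%). The clusters were also mostly of 1 origin, since 51 of 57 cells of cluster 17, 45 of 54 of cluster 19 and all 13 of cluster 32 were male, 35 of 37 of cluster 25 (median mitochondrial share 1.65%) were ERαKO, and clusters 14, 16 and 28 together held 1 male cell. A ratio over all proximal tubule cells therefore mixes levels per cell with the share of early and late cells, and which part of the tubule came along with the glomeruli of each mouse cannot be told apart from sex and genotype. Early and late values are given below for the members the results turn on, where these had 20 UMIs over both libraries.

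Members differed in where they lay along these clusters. Slc22a7 was late, with 688 of 688 female UMIs in late clusters, 156 of 172 male UMIs and 1586 of 1594 ERαKO UMIs. Slc22a19 likewise had 506 of 517 female and all 109 male UMIs in late clusters. Slc5a2 and Slc5a12 were early, with all 204 and all 208 male UMIs in early clusters and 47 of 51 and 101 of 104 female UMIs. Slc34a1 stood at 3171 CPM in cluster 16 and 4010 in cluster 19 (libraries summed) but at 280 CPM in cluster 14. Slc22a12, Slc22a18 and Slc22a2 were present in both kinds, for instance Slc22a12 with 314 and 348 CPM in clusters 16 and 19 and 247 and 366 CPM in clusters 14 and 32.

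**Figure D3:**
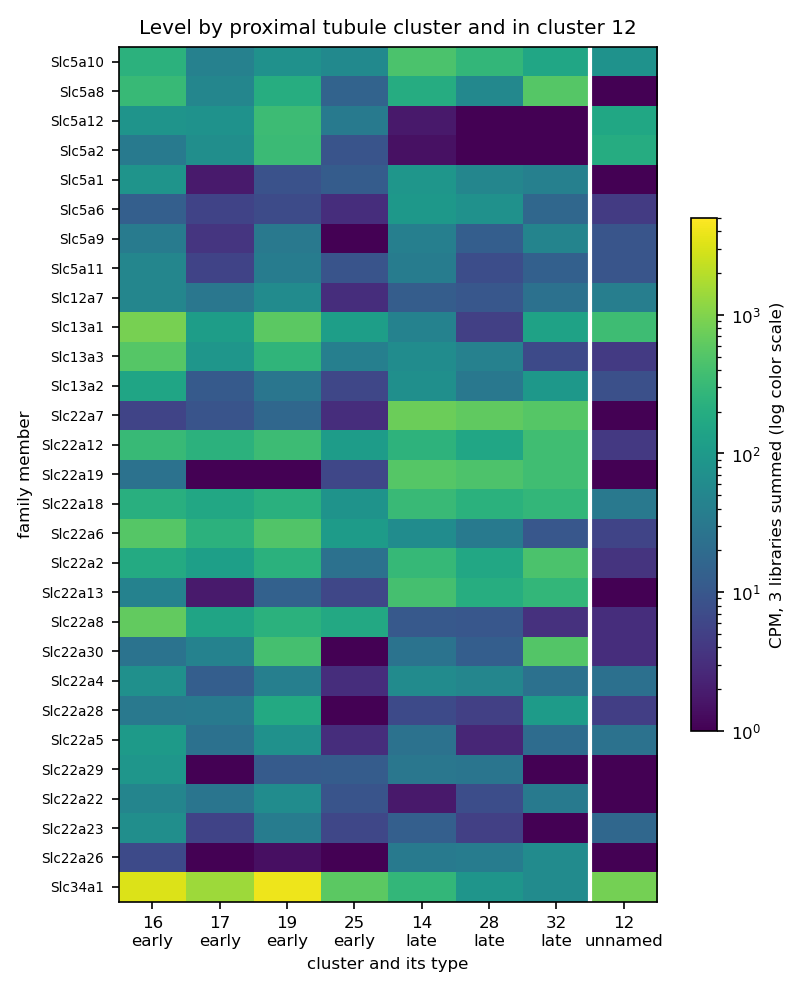
Level (CPM, log color scale, libraries summed) of members in the 4 early and 3 late proximal tubule clusters and in cluster 12, which has no class name. Slc34a1 is brightest in clusters 16 and 19, Slc22a7 and Slc22a19 are bright in clusters 14, 28 and 32, and Slc5a2 and Slc5a12 are bright in cluster 19 and cluster 12.

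The male library was set against the female one to see how the families differ by sex, with a log2 ratio of CPM (1 CPM added to each) and the 95% counting interval of the plain ratio. Of 36 members with 20 UMIs in both libraries together, 11 were at least 1.5-fold higher in male proximal tubule cells, against 21.7% of all genes tested. A further 15 were at least 1.5-fold lower, against 11.0% of all genes, and 10 lay within 1.5-fold. The median log2 ratio was -0.37 for the members and 0.20 for all genes. In early clusters 6 of 32 members were higher (15.3% of all genes) and 16 lower (17.7%), with medians of -0.67 and 0.01. In late clusters 10 of 27 were higher (30.2%) and 6 lower (12.8%), with medians of 0.05 and 0.24. Lower members thus outnumbered higher ones in early clusters and not in late ones, a contrast that was not tested, and in both the members' median lay below that of all genes. Over all cells the members' median was -0.058 at a clustering resolution of 2, -0.078 with classes set cell by cell and -0.15 at a mitochondrial limit of 50%.

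The ERαKO library was set against the same female library, so the comparisons share it. Of 38 members, Slc22a2, Slc12a3 and Slc12a9, or 3, were at least 1.5-fold higher (9.18% of all genes) and 10 lower (10.2%), and 25 lay within 1.5-fold. Slc12a3 was higher through the 1 cell named above. The median was -0.27 against 0.04 for all genes, and -0.061 at a mitochondrial limit of 50%. Early clusters had 2 of 31 members higher (14.0%) and 13 lower (15.7%), with a median of -0.41 against 0.01. Late clusters had 10 of 34 higher (16.6%) and 2 lower (7.18%), with a median of 0.21 against 0.15. Early cells thus had more lower than higher members and late cells more higher than lower ones, a contrast that was not tested. Of 88 early ERαKO cells, 35 were in cluster 25, while 41 of 48 early female cells were in cluster 16. Early values without cluster 25 were not computed.

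**Figure D4:**
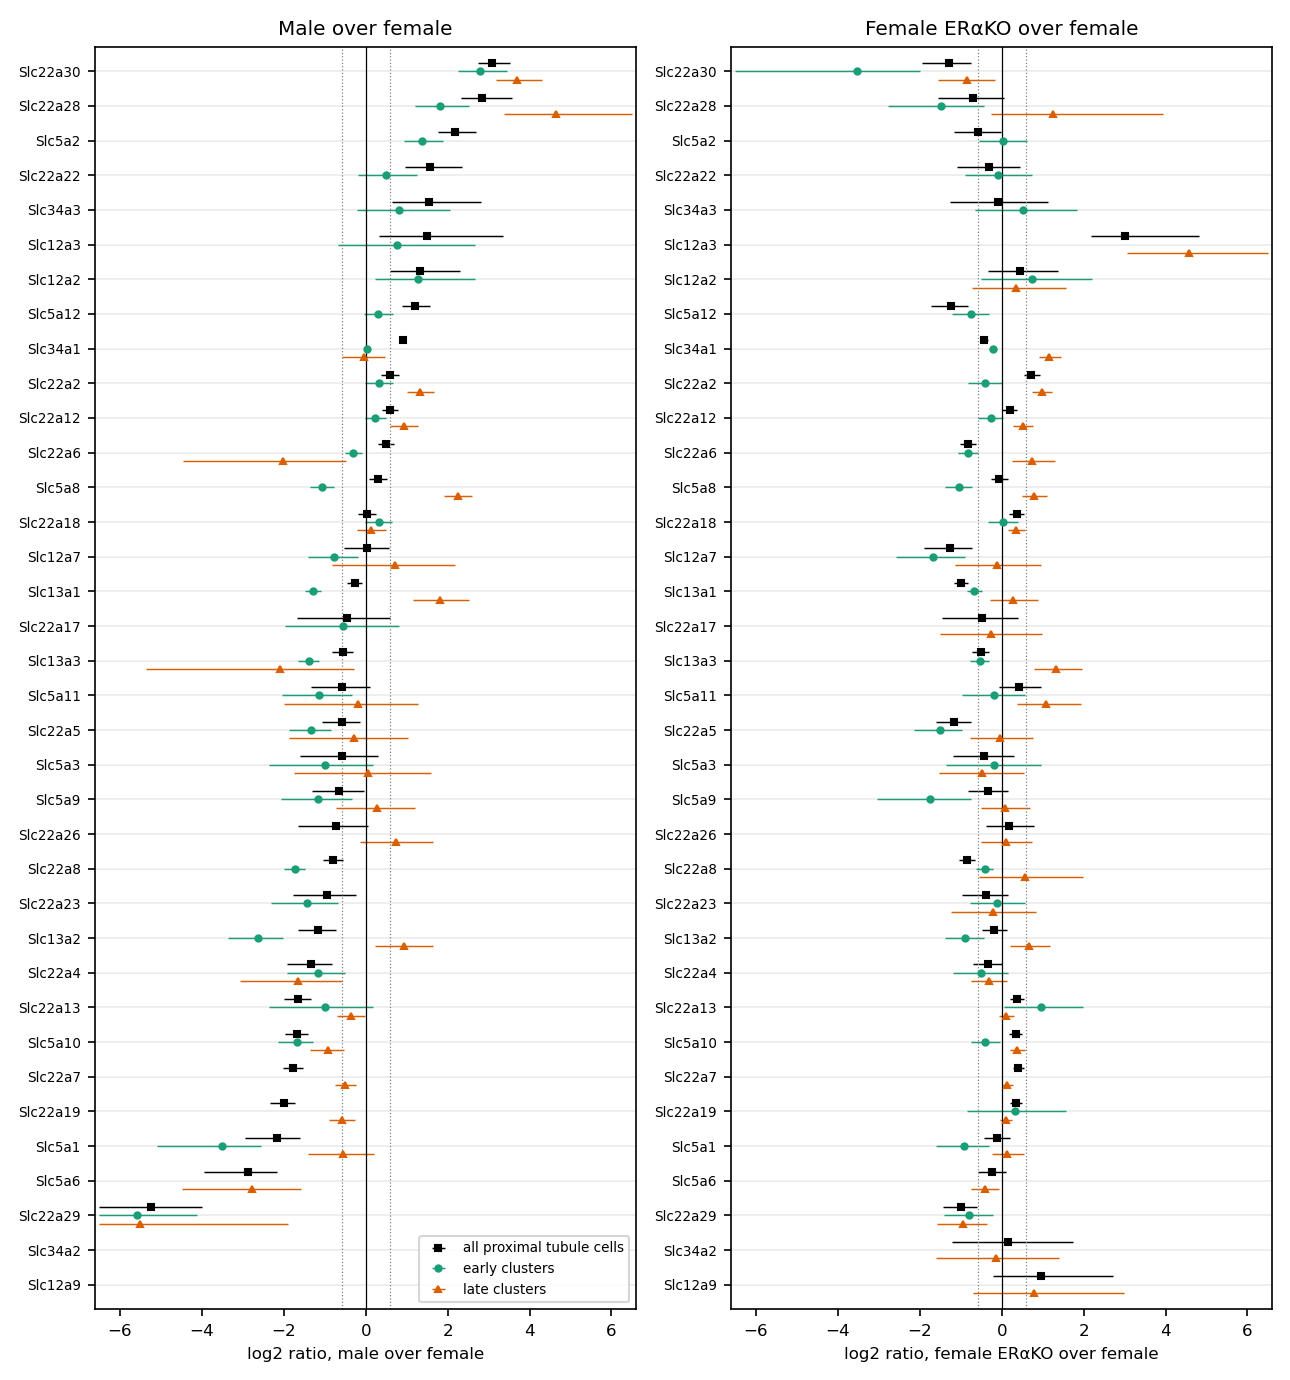
Log2 ratio of tested members in proximal tubule cells, male over female on the left and ERαKO over female on the right, with 95% counting intervals, for all cells (squares), early clusters (circles) and late clusters (triangles). Dotted lines mark 1.5-fold, intervals beyond the axis run to its edge, and Slc22a30 and Slc22a28 are at the high end and Slc22a29 at the low end of the left panel in all 3 sets.

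Phosphate transport is carried by Slc34a1, and its male excess over all cells was not present within either kind of cluster. Slc34a1 (chromosome 13, 55398187 to 55415592, plus strand, GRCm38) was 0.90 higher in male than female cells on the log2 scale (interval 0.82 to 0.99). In early clusters its levels were 2870 CPM in the male, 2810 in the female and 2417 in the ERαKO library, and in late clusters 132, 136 and 305 CPM. The male to female log2 ratios were then 0.03 (-0.05 to 0.11) and -0.04 (-0.57 to 0.46). The ERαKO library stood -0.42 from the female one over all cells (-0.51 to -0.34), -0.22 in early (-0.31 to -0.13) and 1.16 in late clusters (0.90 to 1.44). Slc34a3, a second phosphate cotransporter, had 30, 11 and 18 UMIs, and Slc34a2 2, 7 and 14, so both were rare in every library.

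Glucose cotransporters differed from each other. Slc5a2 (SGLT2, chromosome 7, 128265657 to 128272430, plus strand), the bulk glucose carrier of the early tubule, had 141 CPM in male, 30.2 in female and 20.0 in ERαKO cells, a male log2 ratio of 2.19 (1.78 to 2.699). Within early clusters it was 182, 69.6 and 71.2 CPM, so the male excess was smaller there (1.38, 0.92 to 1.88) and the ERαKO value was level with the female one (0.03, -0.55 to 0.62). The 51 female UMIs of Slc5a2 lay in 11 cells, 13 of them in 1 cell, and the 59 ERαKO UMIs in 16 cells. Cells without a class name, which these ratios leave out, held 490 male, 198 female and 276 ERαKO UMIs of Slc5a2. Their totals were 3086249, 2166224 and 2501369 UMIs. Slc5a1 ran the other way from Slc5a2, with 16.6 CPM in male, 78.6 in female and 72.8 in ERαKO cells (male -2.18, -2.94 to -1.61). Its male level was lower in early clusters (6.25 against 81.4 CPM, -3.51, -5.08 to -2.56), while in late clusters 52.3 and 76.8 CPM had an interval across 0 (-0.55, -1.41 to 0.21). Slc5a10, which takes up mannose and fructose, was lower in the male library too, with 91.3, 295 and 374 CPM (male -1.68, -1.98 to -1.41), in early (-1.68) and late clusters (-0.93) alike. Slc5a9, another sugar carrier, had 24.2, 38.4 and 30.5 CPM (male -0.65, -1.30 to -0.05). Its male ratio was -1.15 (-2.08 to -0.34) in early and 0.27 (-0.73 to 1.21) in late clusters, and its ERαKO ratio was -1.75 (-3.03 to -0.75) in early clusters.

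The monocarboxylate carriers Slc5a8 and Slc5a12, which reclaim lactate, also parted. Slc5a12 had 144, 61.5 and 25.4 CPM, with a male log2 ratio of 1.21 (0.88 to 1.58) that came to 0.31 (-0.04 to 0.67) within early clusters. In the ERαKO library it was lower than in the female one over all cells (-1.24, -1.72 to -0.83) and in early clusters (-0.76, -1.22 to -0.32). Slc5a8 differed little over all cells, with 237, 193 and 186 CPM, but the male level was lower in early clusters (148 against 311 CPM, -1.06) and higher in late ones (544 against 114 CPM, 2.24). Slc5a6, the sodium-dependent multivitamin transporter, had 8.99 CPM in the male library against 72.1 and 61.3 CPM in the others. Its male log2 ratio was -2.87 (-3.95 to -2.18), and -2.77 (-4.49 to -1.58) in late clusters, where 112 of its 122 female UMIs lay. Slc5a11, a myo-inositol carrier, had 18.7, 28.4 and 38.6 CPM, with intervals across 0 in both comparisons over all cells. It was lower in male early clusters (-1.14, -2.04 to -0.34) and higher in ERαKO late ones (1.08, 0.37 to 1.95).

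In the Slc13 family, Slc13a1, the sodium-sulfate cotransporter, had 300.3 CPM in male, 363 in female and 182 in ERαKO cells. The ERαKO level was lower than the female one (-0.99, -1.17 to -0.83) and stayed lower in early clusters (540.3 against 857 CPM, -0.66, -0.85 to -0.49). The male level was lower in early (352 against 857 CPM, -1.28) and higher in late clusters (123 against 34.5 CPM, 1.81). Slc13a3, a dicarboxylate carrier of the basolateral side, had 141, 208 and 146 CPM, with early values of 180, 475 and 327 CPM. Its ERαKO ratio was -0.54 (-0.78 to -0.30) in early and 1.32 (0.78 to 1.97) in late clusters, and its male ratio was below 0 in both (-1.39 and -2.10, the latter from 2 male UMIs). Slc13a2, its apical relative for citrate and other dicarboxylates, had 37.4, 84.6 and 74.5 CPM (male -1.16, -1.66 to -0.72), with opposite male ratios in early (-2.62) and late clusters (0.93). Slc13a2 shares exon bases with the antisense gene Slc13a2os, which had 31 kept UMIs in all, and whether the counting used strand is not given in the sources used here.

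The Slc22 organic anion transporters of the basolateral membrane, Slc22a6 (OAT1) and Slc22a8 (OAT3), take up drugs and metabolites from blood. Slc22a6 had 331 CPM in male, 234 in female and 132 in ERαKO cells, and Slc22a8 138, 240 and 133 CPM. Both lay mostly in early clusters. There Slc22a6 had 425, 524 and 296 CPM and Slc22a8 177, 589 and 444 CPM, so Slc22a8 was lowest in the male library (-1.73, -1.99 to -1.49, and -0.80, -1.05 to -0.55, over all cells). The male level of Slc22a6, above the female one over all cells, was thus below it in early clusters. In late clusters Slc22a6 was at least 1.5-fold lower in the male library. The ERαKO library was below the female one for Slc22a6 (-0.82, -1.03 to -0.62) and Slc22a8 (-0.84, -1.05 to -0.64) over all cells. Within early clusters the ERαKO ratio kept its size for Slc22a6 (-0.82, -1.07 to -0.59) and was smaller for Slc22a8 (-0.41, -0.62 to -0.20). In late clusters it had the opposite sign for both, 0.74 (0.25 to 1.30) for Slc22a6 and 0.58 (-0.55 to 1.99) for Slc22a8, the latter from 26 and 8 UMIs.

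Slc22a7 (OAT2, chromosome 17, 46432183 to 46438457, minus strand), Slc22a19 (OAT5) and Slc22a13 (OAT10), 3 further anion carriers, were late and lower in the male library. Slc22a7 had 119, 407 and 540 CPM (male -1.76, -2.02 to -1.53). Slc22a19 had 75.4, 306 and 390 CPM (-2.01, -2.33 to -1.72), and Slc22a13 had 71.3, 225 and 291 CPM (-1.64, -1.99 to -1.34). In late clusters alone the male ratios were -0.50 (-0.76 to -0.25) for Slc22a7, -0.57 (-0.88 to -0.27) for Slc22a19 and -0.35 (-0.70 to -0.02) for Slc22a13, in the same direction and within 1.5-fold. Their ERαKO levels were within 1.5-fold of the female ones over all cells.

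The urate carrier Slc22a12 (URAT1) had 331, 221 and 252 CPM, and Slc22a18 had 230, 225 and 290 CPM, both within 1.5-fold in both comparisons over all cells. The male level of Slc22a12 was close to that limit, and in late clusters it was at least 1.5-fold above the female one. Slc22a2 (OCT2), an organic cation carrier, had 250 CPM in male, 166 in female and 275 in ERαKO cells, above the female level in the male (0.59, 0.36 to 0.82) and ERαKO libraries (0.73, 0.53 to 0.93). In late clusters the male and ERαKO excess of Slc22a2 was 1.33 (1.01 to 1.67) and 0.97 (0.74 to 1.23), and in early clusters the ratios were 0.32 (-0.02 to 0.66) and -0.41. The carnitine transporter Slc22a5 (OCTN2) had 42.2, 63.9 and 28.1 CPM, lower than in the female library in the male (-0.59, -1.08 to -0.13) and ERαKO ones (-1.16, -1.61 to -0.76). In early clusters these ratios were -1.34 (-1.87 to -0.85) and -1.51 (-2.14 to -0.96), and in late ones both intervals crossed 0. The 3′ end of Slc22a5 shares 334 of 451 runs of 50 bases with Slc22a21, so their counts are uncertain. Slc22a4, a carrier of ergothioneine, had 26.3, 67.4 and 53.2 CPM (male -1.33, -1.93 to -0.82), and was lower in male early (-1.17, -1.92 to -0.50) and late clusters (-1.66, -3.07 to -0.58). Slc22a22, a prostaglandin carrier, had 47.7, 15.4 and 12.2 CPM (male 1.57, 0.96 to 2.34), with an interval across 0 in early clusters (0.50, -0.19 to 1.25).

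A run of related genes on the minus strand of chromosome 19 held the members farthest apart between libraries. Slc22a26, Slc22a27, Slc22a28, Slc22a29 and Slc22a30, relatives of the organic anion transporters, follow each other between 7781041 and 8405111 of GRCm38. Slc22a28 and Slc22a30 have 98.79% identical coding bases, Slc22a27 and Slc22a29 97.28%, and Slc22a29 and Slc22a30 92.16%, while Slc22a26 has at most 74.08% in common with the others. Of 451 runs of 50 bases in the last 500 transcript bases, Slc22a28 and Slc22a30 share 29, Slc22a27 and Slc22a29 share 60, and Slc22a29 shares none with Slc22a28 or Slc22a30. Counts within each of the first 2 pairs are therefore uncertain and are also given as sums.

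The bases before the start sites of Slc22a28, Slc22a29 and Slc22a30 are shown because these neighbours have the most different ratios, and they were chosen after the values were seen. Each window holds the 250 bases before the RefSeq start (GRCm38.p6), at chr19:8131983-8132232, chr19:8218901-8219150 and chr19:8405106-8405355, all on the minus strand and written 5′ to 3′. Capitals in Slc22a29 and Slc22a30 mark bases not paired with the same base of the Slc22a28 window in a global alignment.
Slc22a28: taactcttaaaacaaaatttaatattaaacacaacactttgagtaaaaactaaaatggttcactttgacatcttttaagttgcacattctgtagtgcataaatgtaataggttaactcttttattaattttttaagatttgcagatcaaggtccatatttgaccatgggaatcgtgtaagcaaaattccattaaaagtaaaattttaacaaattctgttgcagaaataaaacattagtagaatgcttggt
Slc22a29: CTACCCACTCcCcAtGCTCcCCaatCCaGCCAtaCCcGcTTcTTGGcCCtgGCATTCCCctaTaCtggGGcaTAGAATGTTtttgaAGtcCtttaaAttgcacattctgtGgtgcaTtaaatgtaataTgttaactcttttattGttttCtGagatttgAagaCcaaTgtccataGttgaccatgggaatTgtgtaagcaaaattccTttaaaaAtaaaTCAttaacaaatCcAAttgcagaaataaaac
Slc22a30: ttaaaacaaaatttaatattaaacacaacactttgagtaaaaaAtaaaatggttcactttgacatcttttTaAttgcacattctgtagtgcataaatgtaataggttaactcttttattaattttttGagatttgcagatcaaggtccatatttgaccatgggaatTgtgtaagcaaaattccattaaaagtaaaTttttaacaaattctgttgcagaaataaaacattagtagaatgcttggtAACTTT
The Slc22a30 window matched Slc22a28 at 238 of 250 bases (95.2%) and the Slc22a29 window at 171 (68.4%), with 60 of its 79 capitals in the first 100 bases, farthest from the start. Short motifs were searched on both strands of 55 such windows of 250 bases, which RefSeq gave for 47 members. TGTTCT, an arm of the androgen and glucocorticoid receptor site, was in 8 (14.5%) against 16.1% of 32851 mouse windows, TTCNNNGAA, the STAT motif, in 5 (9.09%) against 7.02%, and CAAAGTCCA, the HNF4 motif, in 0 against 0.384%. None of these was in the windows printed. A match in letters is a description and no binding site, and a missing match says nothing of the factor.

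Slc22a30 had 454 UMIs in male, 61 in female and 42 in ERαKO proximal tubule cells, or 314, 36.1 and 14.2 CPM. Its male log2 ratio was 3.09 (2.73 to 3.53), an 8.71-fold difference, and was 2.79 (2.24 to 3.46) in early and 3.69 (3.19 to 4.31) in late clusters. Slc22a28 followed with 121, 16.0 and 9.48 CPM (male 2.85, 2.33 to 3.56). Summed over this pair, 435, 52.0 and 23.7 CPM gave male ratios of 3.04 (2.74 to 3.40) over all cells, 2.42 (2.01 to 2.89) in early and 3.86 (3.38 to 4.44) in late clusters. The male excess of the pair was thus present in both kinds of cluster. The ERαKO sum was below the female one over all cells (-1.10, -1.61 to -0.66) and in early clusters (12 against 50 UMIs, -2.28, -3.40 to -1.43), and in late clusters its interval crossed 0 (-0.44, -1.07 to 0.18).

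Slc22a29 ran against Slc22a28 and Slc22a30 between the male and female libraries. It had 1 UMI in 1 of 111 male proximal tubule cells, 106 UMIs in 47 of 89 female cells and 91 in 56 of 184 ERαKO cells, or 0.692, 62.7 and 30.8 CPM. The male to female ratio of CPM was 0.0110 with a counting interval of 0.000277 to 0.0628. No cell held more than 6 of the female or 5 of the ERαKO UMIs. In early clusters the counts were 1, 61 and 43 UMIs, and in late clusters 0, 45 and 48. Against the floor of 3 UMIs for the male count of 0, Slc22a29 was at least 4.81-fold lower in male than in female late clusters. The ERαKO level was lower than the female one in all cells (-1.001, -1.44 to -0.61), in early (-0.79, -1.40 to -0.21) and in late clusters (-0.94, -1.59 to -0.35). Slc22a27, its near copy, had 1 male, 4 female and 12 ERαKO UMIs in these cells, and the pair summed to 2, 110 and 103 UMIs, which left the male direction the same. Slc22a26 had 13.1, 22.5 and 25.7 CPM, with intervals across 0 in both comparisons, and its male ratio was 0.75 (-0.15 to 1.64) in late clusters.

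Slc12 members were minor in proximal tubule cells. Slc12a7 had 36.7, 36.1 and 14.6 CPM (ERαKO -1.25, -1.91 to -0.72, and -1.67, -2.58 to -0.90, in early clusters). Slc12a9 had 11 male, 6 female and 23 ERαKO UMIs, so its ERαKO ratio had an interval across 0 (0.95, -0.20 to 2.72). Slc12a2 had 28.4, 10.6 and 14.9 CPM, beside smooth muscle and renin markers that were also lowest in the female cells, and the part of such RNA in it was not tested.

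Genes that work with the proximal carriers were taken from a list of 27, of which 26 could be compared. In the male library 5 were at least 1.5-fold higher (21.7% of all genes) and 7 lower (11.0%) than in the female one, with a median log2 ratio of 0.07. In the ERαKO library 2 were higher (9.18%) and 5 lower (10.2%), with a median of 0.04. Early and late clusters were not compared for this list. Slco1a1, an organic anion carrier of the apical side, had 225 male UMIs (156 CPM) and 0 in the other libraries. Slc2a5, the fructose carrier, was lower in male cells (27.7, 75.7 and 105 CPM), as was Gsta2, a glutathione transferase (254, 742 and 849 CPM). The sodium pump subunit Atp1b1 and the scaffold Pdzk1, which holds Slc34a1 and Slc22a12 at the brush border, were within 1.5-fold in both comparisons. Fxyd2, also of this list, was higher in male cells, with 7166, 3520 and 5150 CPM (male 1.03, 0.98 to 1.07, and ERαKO 0.55, 0.51 to 0.59). Kl, the co-receptor for the phosphate-regulating hormone FGF23, had 175, 86.3 and 57.9 CPM, in the same order as Slc34a1 over all cells. Hnf4a and the parathyroid hormone receptor Pth1r were within 1.5-fold in both comparisons.

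Regulators of the cation-chloride cotransporters, a list of 19, could be compared for 11 genes in proximal tubule cells. There 1 was higher (21.7% of all genes) and 4 lower (11.0%) in the male library, with a median of -0.11, and 0 were higher (9.18%) and 3 lower (10.2%) in the ERαKO library, with a median of -0.33. Sgk1, a kinase induced by mineralocorticoids, was highest in the female library (98.2, 267 and 173 CPM). In the distal convoluted tubule, where Slc12a3 acts, the kinase Wnk1 had 3795, 5697 and 3981 CPM, Klhl3, which targets WNK kinases for degradation, 676, 1124 and 500.4 CPM, and Wnk4 536, 350 and 535 CPM. Umod stood at 10419, 8015 and 4059 CPM in the thick ascending limb beside Slc12a1. With 2 female distal convoluted tubule cells, no order between libraries is read there.

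The level of proximal tubule members in glomerular cells differed by library. Over 16 members, those of up to 6 most abundant per family whose highest class was the proximal tubule, the summed level in podocytes was 1.05% of that in proximal tubule cells in the male, 0.791% in the female and 2.34% in the ERαKO library, and in endothelial cells 1.40%, 0.825% and 2.17%. Mesangial cells gave 1.75%, 0.771% and 1.49%, and parietal cells 1.34%, 0.639% and 1.63%, so the female library was lowest in all 4 classes. These members were chosen as highest in proximal tubule cells, so a lower level in other classes was set by the choice and is no result. For Slc34a1, 10.2%, 2.65% and 11.4% of podocytes had a UMI after thinning to 4000 UMIs, against 10.3%, 3.64% and 12.7% of endothelial cells, which should lack it. The unthinned shares were 19.1%, 6.71% and 21.97% of podocytes and 16.8%, 7.71% and 23.9% of endothelial cells, at the median depths given for Slc5a3. The thinned podocyte shares were at or below the endothelial ones, so no podocyte expression is read from them. The part of RNA from other cells in them was not tested. Of the podocyte UMIs of Slc34a1, 1 cell held 99 of 204 in the female and 87 of 374 in the ERαKO library.

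With the part of RNA from other cells not tested, member counts in the other classes are given as values. In podocytes 6 of 29 members were at least 1.5-fold higher in the male library (3.83% of all genes) and 3 lower (1.53%), and 18 of 32 were higher in the ERαKO library (7.75%) and 0 lower (2.56%). Of those 18, 14 had their highest class in the proximal tubule, such as Slc34a1 (25.1, 11.3 and 42.5 CPM). For some of the 18, 1 cell held much of the ERαKO podocyte UMIs, as 22 of 42 for Slc22a6 and 89 of 231 for Slc12a3. Others were spread, as Slc22a7 (39 UMIs) and Slc22a19 (25 UMIs) with at most 1 UMI in any cell. Slc5a3, the podocyte member, was within 1.5-fold in both comparisons. Endothelial cells had 10 of 30 members higher in the male library (3.15%) and 1 lower (3.61%), and 10 of 27 higher (4.57%) and 2 lower (4.23%) in the ERαKO library, of which all 10 and then 9 of the 10 higher members were highest in the proximal tubule. An exception was Slc12a5, an endothelial member by level, which was lower in the ERαKO library (10.9 against 20.0 CPM). Parietal cells had 3 of 13 (11.7%) and 5 of 17 (13%) higher, mesangial cells 4 of 10 (9.49%) and 5 of 10 (11.3%), and smooth muscle and renin cells 3 of 9 (7.04%) and 2 of 10 (7.24%), with 0 lower in each (5.33% and 6.57%, 9.88% and 7.66%, and 7.81% and 10.8%). Phagocytes had 1 higher (6.28%) and 2 lower (18.4%) of 4 in the male and 0 higher (9.5%) and 1 lower (16.3%) of 3 in the ERαKO library.

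Many member UMIs lay outside the cells used. The 2093 barcodes of at least 500 genes over the mitochondrial limit held 22.5% of all UMIs but 85.5% of those of Slc12a3, 69.6% of Slc12a1, 68.1% of Slc13a3, 66.7% of Slc22a8 and 63.0% of Slc34a1. Among those at the other end were Slc12a8 with 3.60%, Slc12a5 with 5% and Slc12a2 with 8.50%, members of endothelial and mesangial cells. The described members of the tubule are thus seen here in the part of tubule cells with few mitochondrial UMIs.

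**Figure D5:**
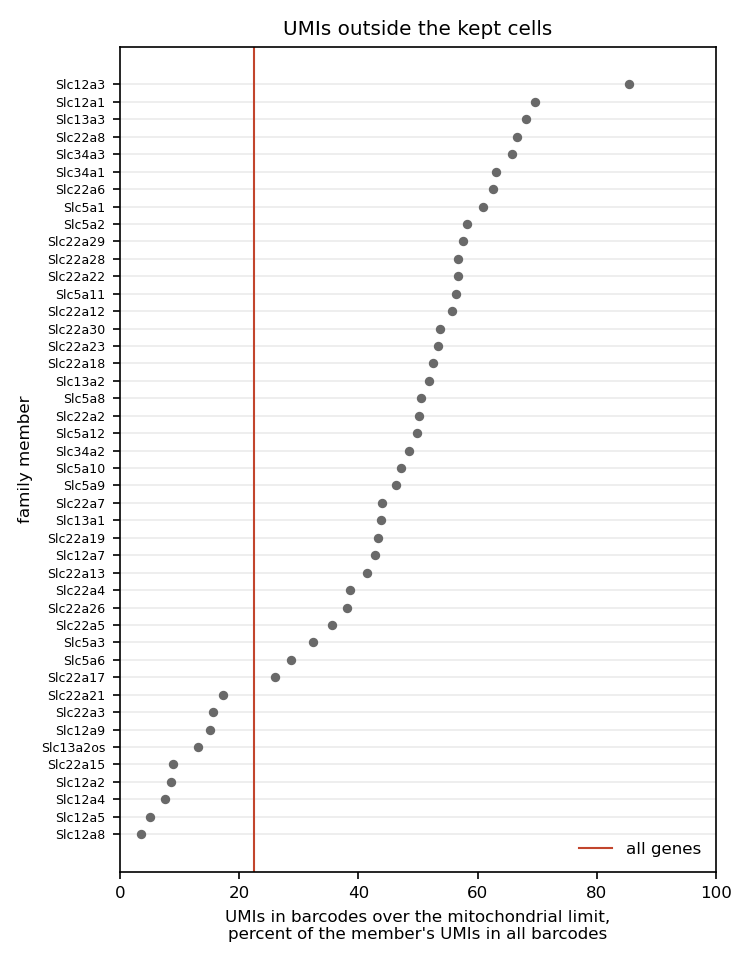
Share of described members' UMIs in all barcodes that lay in barcodes over the mitochondrial limit (percent, points), with the share over all genes as a line at 22.5%. Slc12a3 is highest at 85.5% and Slc12a8 lowest at 3.60%.

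A cluster without a class name, cluster 12, held another part of the early members. Its 186 cells (62 male, 33 female and 91 ERαKO) had parietal and proximal tubule markers together, with C3 and Gc among the leading genes. It held 67.7% of the kept UMIs of Slc5a2, 60.3% of Slc5a12, 49.1% of Slc13a1 and 44.3% of Slc34a3. The proximal tubule ratios of these members leave these UMIs out. Slc34a1 stood at 852 CPM in cluster 12, while Slc22a6 had 5.68 and Slc22a8 3.04 CPM (libraries summed).

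Several of the other members were at the edge of detection. The 3 just above the minimum were Slc22a3 with 26 kept UMIs, Slc13a2os with 31 and Slc34a2 with 63, and the 3 just below were Slc22a27 with 19, Slc13a4 with 14 and Slc22a14 with 12. Of the remaining 7 undescribed members, Slc5a4b, Slc13a5, Slc5a5 and Slc22a20 had 1 to 3 UMIs, and Slc5a4a, Slc5a7 and Slc22a16 had none in any barcode. Slc22a15 and Slc22a21, 2 described members not yet placed, had 890 and 221 kept UMIs. Slc22a15 had its highest mean level in parietal cells (23.9 CPM) and Slc22a21 in smooth muscle and renin cells (4.96 CPM). Both were low throughout, with at most 30 and 7.40 CPM in any class and library.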

How the data were processed

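Kidney glomerular cells of 1 male, 1 female and 1 female ERαKO mouse were profiled, 1 library per group. The authors deposited raw UMI counts in matrices of genes by barcodes, which they had already filtered by a rule not given in the sources used here. The genome build was mm10 and the tools were STAR 2.7.5a and Cell Ranger 6.1.2, per the submitters' processing notes. How reads shared by near copies were counted is not given in the sources used here. Each molecule gives 1 tag, so CPM values were not divided by gene length.

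Barcodes needed 500 genes or more and a mitochondrial share of 25% or less, and those with a Scrublet doublet score over 0.2 were removed (109, 72 and 93 in the male, female and ERαKO libraries). Counts were scaled to 10000 per cell, and 30 principal components of 2000 variable genes, without family members, were clustered (scanpy 1.11.5, leidenalg 0.10.2, resolution 1, 15 neighbours). Tubule cells were clustered a second time. Clusters were named from marker lists. Early clusters were those with over 1000 CPM of the early list.

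UMIs were summed per class and library. Intervals are exact and cover 95% counting error, by the conditional ratio of 2 Poisson counts for ratios and Clopper-Pearson for shares. A count of 0 is limited by 3 counts. Scripts were tested on simulated data. Members and lists were chosen with earlier results of these data known, and the naming minima, second clustering, doublet limit and early level were set after seeing the data. Named are the 6 most abundant members per family in proximal tubule cells, the 3 most abundant in each other class of at least 30 cells, members at least 1.5-fold apart in proximal tubule cells with at least 100 UMIs in the libraries compared and an interval on 1 side, and the 3 members either side of 20 UMIs. Other members are named to account for all, except that some genes counted in the totals are not reported here by name and are not drawn. Exons of 12 members share bases with another gene in GENCODE M21, 2 of them on the same strand. Protein sequences were not used here, and copies were compared by coding bases (biopython 1.88). Alternatives were edgeR 4.0.16 TMM factors, totals without mitochondrial UMIs, a pseudocount of 10 CPM, minima of 1 and 100 UMIs, mitochondrial limits of 50% or none, doublets kept, a doublet limit set by the tool, resolutions of 0.5 and 2, members allowed in clustering, no second clustering, classes set cell by cell, early or late clusters only, and leaving out cluster 25 or the cell with the most UMIs. Other tools were scipy 1.17.1, numpy 2.4.6, scikit-learn 1.9.0, pandas 2.3.3 and matplotlib 3.10.9, in Python 3.11.15 and R 4.3.3.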

Additional observations from a re-analysis of the deposited data

Results flagged for a closer look

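Barcodes with over 25% mitochondrial UMIs entered no comparison, and several members had most of their UMIs there: 85.5% for Slc12a3, 69.6% for Slc12a1, 68.1% for Slc13a3, 66.7% for Slc22a8, 65.8% for Slc34a3, 63.0% for Slc34a1, 62.6% for Slc22a6 and 61.0% for Slc5a1, against 22.5% over all genes. Cluster 12, which has no class name and entered no comparison, held 67.7% of the kept UMIs of Slc5a2, 60.3% of Slc5a12, 49.1% of Slc13a1 and 44.3% of Slc34a3.

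Some members stood on opposite sides of the female library in early and late proximal tubule clusters, each with at least 1.5-fold and a counting interval on 1 side. The difference between early and late clusters was not tested. For male over female, the early and late log2 ratios were -1.28 and 1.81 for Slc13a1, -1.06 and 2.24 for Slc5a8, and -2.62 and 0.93 for Slc13a2. For ERαKO over female, they were -1.05 and 0.80 for Slc5a8, -0.89 and 0.66 for Slc13a2, and -0.82 and 0.74 for Slc22a6. The male late values rest on 14 cells.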

How the results depend on the processing

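No paired analysis was possible because each group is 1 library, and for the same reason none was left out in turn. Of the counts, medians and percents under all alternatives, 202 values were labelled the same, 63 moved and 2 reversed. For single members, 1023 were the same, 120 moved and 8 reversed. Counts of members apart were the same within 1.5-fold, medians within 0.1 on the log2 scale and single members within their counting interval. A single member could be labelled reversed only if at least 1.5-fold apart over all cells, with an interval on 1 side. The causes of the changes were not tested, except that higher minima test fewer genes and early or late clusters hold fewer cells.

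Male over female, the 11 higher members became 7 at a minimum of 100 UMIs, 17 at 1 UMI and 6 in early clusters, and the 15 lower ones 6 in late clusters. The median of -0.37 was -0.57 with TMM factors, -0.26 with a pseudocount of 10 CPM, -0.058 at resolution 2, -0.078 with classes cell by cell, -0.15 at a mitochondrial limit of 50%, -0.16 with no limit, -0.67 in early and 0.054 in late clusters. Partners apart came to 6 at 100 UMIs, from 12, and regulators from 5 to 3 with a pseudocount of 10 CPM, 3 at 100 UMIs and 11 at 1 UMI. Reversed as defined above were Slc13a2 (0.93), Slc34a1 (-0.040) and Slc5a9 (0.27), all in late clusters. Members within 1.5-fold over all cells are not among these, though some, such as Slc13a1 and Slc22a6, also changed sign there.

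ERαKO over female, the 3 higher members became 7 at 1 UMI, 6 at a limit of 50%, 5 with no limit and 10 in late clusters, and the 10 lower ones 5 with no limit and 2 in late clusters. The median of -0.27 was -0.14 at resolution 2, -0.15 cell by cell, -0.061 at 50%, -0.16 with no limit, -0.41 in early and 0.21 in late clusters, and -0.16 without cluster 25. Partners apart went from 7 to 4 (10 CPM), 4 (100 UMIs), 2 (50%) and 2 (no limit), and regulators from 3 to 1 (10 CPM) and 1 (100 UMIs). Reversed as defined above were Slc5a12 with no limit (0.14), Slc13a1 (0.28), Slc22a6 (0.74) and Slc22a8 (0.58) in late and Slc22a2 (-0.41) in early clusters. Members within 1.5-fold over all cells are not among these, though some, such as Slc34a1 and Slc13a3, also changed sign in late clusters.

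The podocyte level, as a percent of the proximal tubule level, became 1.35 in the male library with no limit. In the female library it was 0.505 cell by cell, 0.474 at 50%, 0.669 with no limit, 0.511 with no second clustering and 0.868 with the doublet limit of the tool, and in the ERαKO library 1.62, 1.91, 1.84 and 1.71 under the first 4. The endothelial percent was 1.22 (50%) and 1.90 (no limit) in the male and 1.88 (cell by cell) and 3.01 (no limit) in the ERαKO library. Over the other classes, the 27 higher male members became 42 (50%) and 43 (no limit). The 6 lower ones became 11 (resolution 2), 10 (50%), 12 (no limit), 14 (doublets kept) and 12 (doublet limit of the tool). The 3 lower ERαKO ones became 12 and 9 (resolutions 0.5 and 2), 11 (cell by cell), 6 (50%), 6 (no limit), 5 (doublets kept), 5 (members allowed), 10 (no second clustering) and 7 (doublet limit of the tool). Slc5a2 and Slc5a12 were highest in parietal cells at resolution 0.5 and with no second clustering.

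Depth limits what can be said of members under 100 UMIs, and 1 mouse per group limits every difference.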
